A study of Mus musculus with 12 samples.

Results

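The genes described here are 40 interferon response genes of the mouse, taken by symbol from a list of genes that interferons are known to induce. All 40 were among the 21872 gene symbols of the count table, and none of them was at 0 in every library. Bulk mRNA was sequenced from C57BL/6J mice at postnatal day 24. There were 4 groups of 3 libraries: lesioned prefrontal cortex, control prefrontal cortex, lesioned striatum and control striatum. The lesioned mice carry the genotype label ADHD, and the series describes them as a 6-hydroxydopamine (6-OHDA) model of attention-deficit/hyperactivity disorder. 6-OHDA is a toxin taken up by dopamine neurons, which project to both regions. The controls carry the label CTL, and the sources used here give neither their treatment nor the dose, route or day of 6-OHDA. Whether each library is from another animal is not labelled, so p-values here cover the spread from library to library, which may be technical.

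Type I interferons bind the receptor Ifnar1/Ifnar2, and the kinases Jak1 and Tyk2 then activate transcription factors that include Stat2. Stat2 works with Irf9 in the complex ISGF3, which binds interferon-stimulated response elements (ISREs) in promoters, while interferon gamma acts on gamma-activated sites (GAS). The induced genes encode antiviral effectors, sensors of foreign RNA and parts of antigen presentation, and in the brain microglia and endothelial cells are known to respond strongly.

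The promoters of the genes on which the results turn are shown first. The pair that rose, Ifit3 and Ifit3b, carries near-identical response elements, whose part in the rise was not tested. The sequences are from RefSeq on GRCm38.p6, where 31 of the 40 genes had a promoter window of 250 bases before to 50 bases after the start. Each is printed 5′ to 3′ on the strand of its gene. Capitals mark matches to the ISRE core, which is GAAA, any 2 bases and GAAA again, on either strand, of which overlapping matches run together, or, for Irf1, to the GAS pattern TTCNNNGAA. The stretch of Ifit3 lies at chr19:34583361-34583428 and that of Ifit3b at chr19:34607757-34607824, both on the plus strand. The stretch of Ifit1 lies at chr19:34640773-34640825 on the plus strand and that of Isg15 at chr4:156200863-156200908 on the minus strand. The stretch of Bst2 lies at chr8:71537575-71537614 on the minus strand and that of Irf1 at chr11:53769912-53769944 on the plus strand.
Ifit3: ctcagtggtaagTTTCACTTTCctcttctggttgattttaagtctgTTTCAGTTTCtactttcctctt
Ifit3b: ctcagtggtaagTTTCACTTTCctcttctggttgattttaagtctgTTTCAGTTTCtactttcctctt
Ifit1: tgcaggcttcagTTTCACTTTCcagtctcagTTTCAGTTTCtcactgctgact
Isg15: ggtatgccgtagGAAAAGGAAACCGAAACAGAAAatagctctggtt
Bst2: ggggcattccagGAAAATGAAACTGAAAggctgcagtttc
Irf1: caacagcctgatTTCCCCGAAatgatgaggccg

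The Ifit3 and Ifit3b stretches are the same over 68 bases. Over the promoter windows 258 of 260 aligned bases were identical. Ifit1, the next gene of the family on that strand, holds the same pair of ISRE cores with a shorter gap between them. The ISRE core was found in the windows of 18 of the 31 genes, or 58.1%, against 3.99% of the 27025 genes with a window in the reference. The GAS pattern was found in 9 of the 31, or 29.0%, against 9.55%. A match is a run of letters and says nothing about binding in these tissues.

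Levels are given in CPM, the counts scaled by library total and TMM factor. Each library held 15078631 to 20925452 counts, and the floor of 3 counts corresponded to 0.148 to 0.204 CPM, for counting error only. The labelled regions differed in their neuronal markers: 12 striatal projection neuron markers summed to 4691 to 12170 CPM in lesioned striatum, 2135 to 3481 CPM in control striatum and 622 to 1268 CPM in prefrontal cortex. The second control library of the striatum stood apart, since 11 choroid plexus and ependyma markers summed to 2159 CPM in it, against 56.8 to 115 CPM in the other striatal libraries. In the same library 9 markers of cortical excitatory neurons summed to 939 CPM, against 98 to 322 CPM in the other striatal libraries. The first lesioned striatal library held the least of 10 markers of the hypothalamic border, at 130 CPM, against 325 and 330 CPM in the other lesioned libraries. Among all genes the spread between libraries was a biological coefficient of variation of 5.78% in prefrontal cortex and 14.9% in striatum. In tissue samples, fewer cells of a type and less RNA per cell cannot be told apart.

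The interferon response genes were mostly low in this tissue. On average 35 of the 40 exceeded 1 CPM in some group and 6 exceeded 10 CPM. Per kilobase of exon (RPKM), B2m, the light chain of MHC class I, led in every group, at 66.6 ± 3.77 RPKM in lesioned prefrontal cortex and 66.4 ± 4.66 RPKM in control prefrontal cortex (SD, n = 3 each). Ifi27, a small hydrophobic protein of intracellular membranes, and Ifitm3, which blocks virus entry at the membrane, took the next places. Ifit3 had rank 4 in lesioned prefrontal cortex, at 4.93 ± 0.311 RPKM, and rank 7 in control prefrontal cortex, at 2.73 ± 0.633 RPKM (SD, n = 3 each). The lowest were the antiviral GTPase Mx1 and the nucleic acid sensor Zbp1, at most 0.514 and 0.257 CPM in any library, too low to test.

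In prefrontal cortex, Ifit3 and Ifit3b were higher in lesioned mice, each by about the same factor. They encode interferon-induced proteins with tetratricopeptide repeats, of which IFIT3 in humans is known to bind IFIT1 and stabilise it on viral RNA. Ifit3 had 8.15, 8.45 and 9.20 CPM in lesioned prefrontal cortex, against 4.25, 6.04 and 4.02 CPM in control prefrontal cortex. All 3 lesioned libraries lay above all 3 controls. On the log2 scale the fold change was 0.84 (SE 0.16, a 1.79-fold difference, adjusted p = 0.0081, edgeR's quasi-likelihood test with Benjamini-Hochberg adjustment over all genes).

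Ifit3b, the close copy of Ifit3, had 4.57, 4.65 and 6.11 CPM in lesioned prefrontal cortex, against 2.57, 2.697 and 2.45 CPM in control prefrontal cortex. Again the groups did not overlap, and the 3 controls lay close together. Its log2 fold change was 0.97 (SE 0.18, 1.96-fold, adjusted p = 0.00794). Leaving out any 1 library kept both genes called, with log2 fold changes of 0.75 to 1.03 for Ifit3 and 0.83 to 1.05 for Ifit3b. The fit of all 12 libraries, which takes 1 spread for both regions, gave the sizes 0.85 and 0.99 with adjusted p = 0.139 and 0.159 and called neither.

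The 2 genes are not independent measurements. Their longest transcripts share 1663 of 1697 aligned bases, and 31.3% of the 101-base windows of Ifit3 also occur in Ifit3b, as do 27.1% of those of Ifit3b in Ifit3. The counting rule for reads that match both was not stated, and the split between them is uncertain. The genes lie beside each other on chromosome 19 of GRCm38, Ifit3 at chr19:34583531-34588731 and Ifit3b at chr19:34607970-34613401. Ifit1bl1 lies between them on the other strand, and its log2 fold change was -0.27 (SE 0.16, adjusted p = 0.355). No other tested gene from Lipa to Slc16a12 on either side of the cluster was called.

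**Figure D1:**
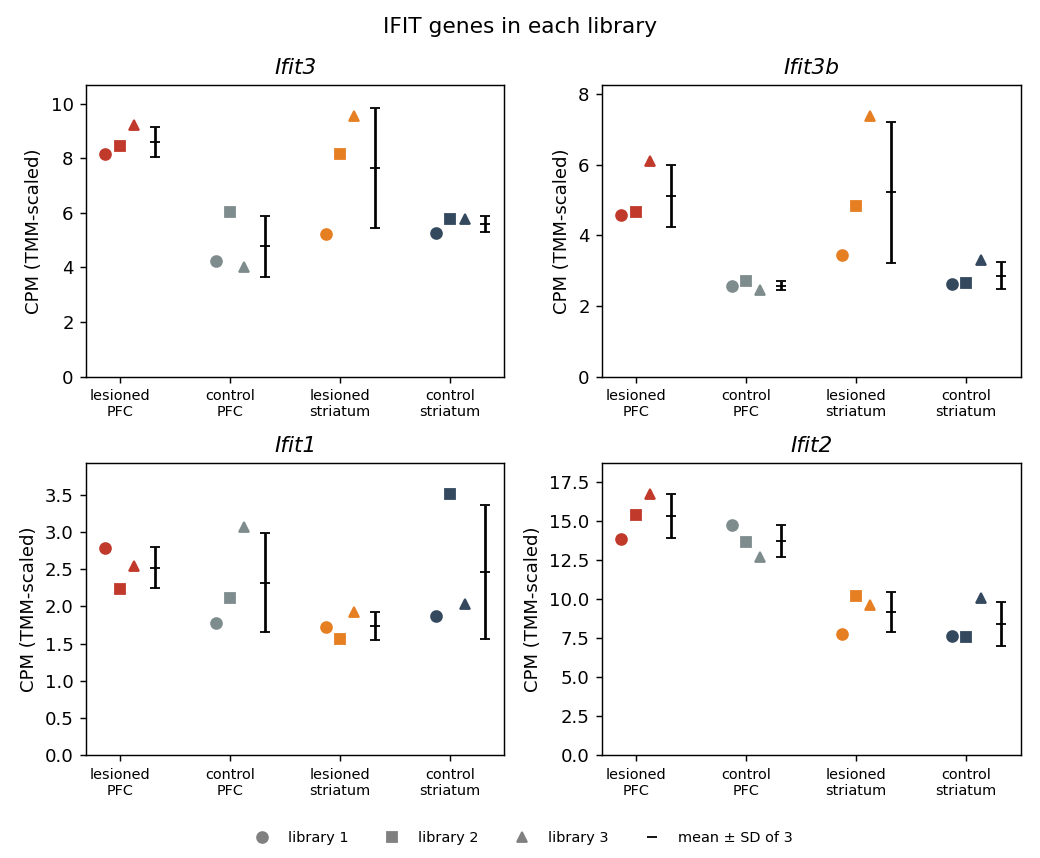
Level of the 4 IFIT genes in CPM (y axis, from 0) in each library of the 4 groups (x axis); symbols give the library number, and bars the mean ± SD of 3. Lesioned prefrontal libraries lie at 8.15 to 9.20 CPM for Ifit3 and 4.57 to 6.11 CPM for Ifit3b, above all controls of that region, while Ifit1 and Ifit2 overlap between lesioned and control libraries.

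The other family members did not pass the test. Ifit1, which binds viral RNA lacking cap methylation, had 2.79, 2.23 and 2.54 CPM in lesioned prefrontal cortex, against 1.78, 2.12 and 3.07 CPM in control prefrontal cortex. These overlapped, with a log2 fold change of 0.13 (SE 0.24), although the Ifit1 window holds the same ISRE cores as the pair. Ifit2 had 13.9, 15.4 and 16.7 CPM in lesioned prefrontal cortex, against 14.7, 13.7 and 12.7 CPM in control prefrontal cortex, a log2 fold change of 0.14 (SE 0.11).

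Over the whole list, 2 of the 38 tested genes were called higher in lesioned prefrontal cortex and 0 lower, beside 3.45% of all 14018 genes called higher and 2.28% called lower (5.73% in either direction). With all 12 libraries in the fit, the share was 0.206% of all genes and 0 of the 38. The log2 fold change was above 0 for 32 of the 38, with a median of 0.18, beside 48.4% of all genes above 0 and a median of -0.005. Without the pair, 30 of 36 lay above 0, with a median of 0.155. At an unadjusted p under 0.05 stood 3 of the 38, beside 20.6% of all genes. In 4 of the 38, or 10.5%, all lesioned libraries lay above all controls (Ifit3, Ifit3b, Ifi27 and Parp9), beside 14.2% of all genes. In 1 of the 38, or 2.63%, they lay below (Ifi35), beside 11.1% of all genes. The list thus lay above 0 in most of its genes by small amounts, while the share that passed the test or separated the groups was near or under that of all genes. The genes respond to the same signals and share libraries, so they are not independent of each other.

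**Figure D2:**
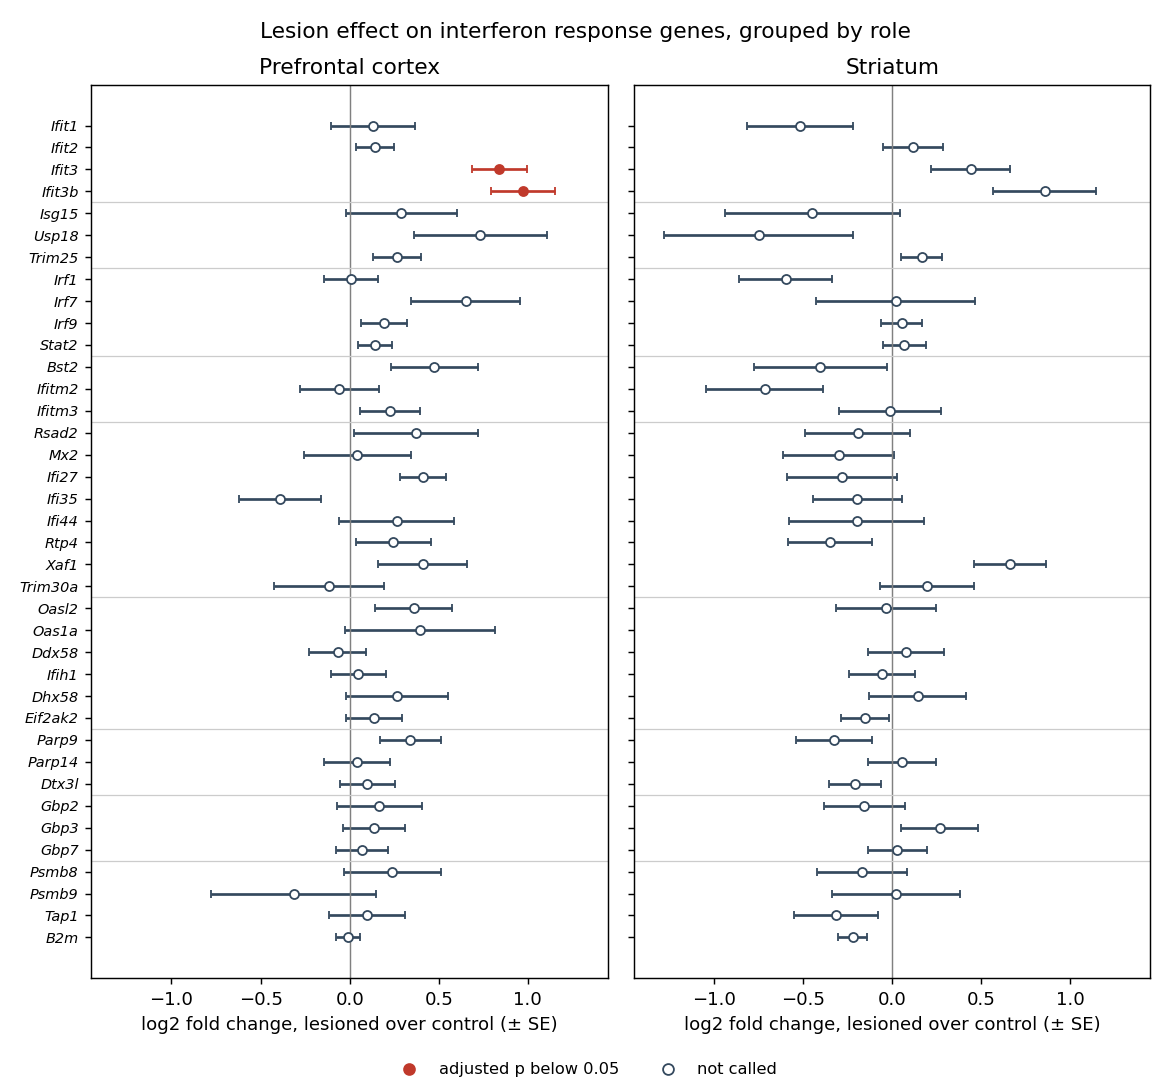
Log2 fold change of lesioned over control (x axis, bars ± SE) for each tested interferon response gene (rows, grouped by role) in prefrontal cortex (left) and striatum (right). Filled red points, Ifit3 and Ifit3b in prefrontal cortex, have an adjusted p below 0.05; open points do not, and 32 of 38 genes lie right of 0 in prefrontal cortex against 15 of 37 in striatum.

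Among the signalling and transcription factors, 0 of 4 were called in prefrontal cortex, and the median log2 fold change was 0.17. Irf7, which amplifies the interferon response, had 2.73, 1.57 and 3.51 CPM in lesioned prefrontal cortex, against 1.14, 1.86 and 2.04 CPM in control prefrontal cortex. The groups overlapped in 1 lesioned library, and the log2 fold change was 0.65 (SE 0.31, adjusted p = 0.252). Irf9, the DNA-binding part of ISGF3, had 12.6, 9.54 and 10.2 CPM in lesioned prefrontal cortex, against 10.03, 8.80 and 9.20 CPM in control prefrontal cortex (log2 fold change 0.19, SE 0.13). Its partner Stat2 was at 0.14 (SE 0.10) and Irf1, a factor induced by interferons, at 0.01 (SE 0.15). Irf9 and Irf7 share exon bases with the neighbouring genes Rnf31 and Phrf1.

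Among the 3 genes of ISG15 conjugation, a ubiquitin-like modification, none was called. Isg15 itself had 1.26, 1.33 and 0.787 CPM in lesioned prefrontal cortex, against 0.790, 0.963 and 1.02 CPM in control prefrontal cortex (log2 fold change 0.29, SE 0.31). Usp18, which removes ISG15 and damps the receptor, had 1.52, 0.664 and 1.39 CPM in lesioned prefrontal cortex, against 0.593, 0.963 and 0.613 CPM in control prefrontal cortex (log2 fold change 0.73, SE 0.37, adjusted p = 0.292). Trim25, a ubiquitin and ISG15 ligase that acts on the RNA sensor RIG-I, had 7.41, 9.54 and 9.80 CPM in lesioned prefrontal cortex, against 7.11, 7.13 and 7.77 CPM in control prefrontal cortex (0.27, SE 0.14, adjusted p = 0.288). In each of the 3 genes the groups overlapped.

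Among the membrane restriction factors, Bst2 (tetherin), which holds budding virus at the cell surface, had 2.94, 3.20 and 1.94 CPM in lesioned prefrontal cortex, against 1.98, 1.54 and 2.25 CPM in control prefrontal cortex. Its log2 fold change was 0.48 (SE 0.25, adjusted p = 0.297), with overlapping groups. Ifitm3 was at 0.23 (SE 0.17) and its relative Ifitm2 at -0.06 (SE 0.22), so none of the 3 was called.

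None of the 8 other antiviral effectors tested was called. Ifi27 came nearest, with 14.2, 15.99 and 14.3 CPM in lesioned prefrontal cortex, against 9.38, 10.4 and 13.6 CPM in control prefrontal cortex. All lesioned libraries lay above all controls, by 0.41 on the log2 scale (SE 0.13, adjusted p = 0.0816). Without the third control library it was 0.58 (adjusted p = 0.0158) and passed the threshold, as it did after correction for GC content and length, at 0.45 (adjusted p = 0.041). Xaf1, a pro-apoptotic protein, had 3.57, 2.23 and 3.33 CPM in lesioned prefrontal cortex, against 1.88, 1.99 and 3.07 CPM in control prefrontal cortex (0.41, SE 0.25, adjusted p = 0.383).

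Ifi35 ran the other way, with 1.73, 1.75 and 1.33 CPM in lesioned prefrontal cortex, against 2.27, 1.99 and 1.98 CPM in control prefrontal cortex. The groups did not overlap, yet the difference did not pass the test (log2 fold change -0.39, SE 0.23, adjusted p = 0.369). Rsad2 (viperin), which makes a chain-terminating nucleotide, was at 0.38 (SE 0.35), Ifi44 at 0.26 (SE 0.32), Rtp4 at 0.25 (SE 0.21), Mx2 at 0.04 (SE 0.30) and Trim30a at -0.12 (SE 0.31).

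Among the RNA and DNA sensors, 0 of 6 were called and 5 lay above 0, with a median log2 fold change of 0.20. Oasl2, of the oligoadenylate synthetase family, had 3.05, 2.90 and 4.18 CPM in lesioned prefrontal cortex, against 2.42, 3.15 and 2.25 CPM in control prefrontal cortex (0.36, SE 0.22, adjusted p = 0.374). Oas1a was at 0.40 (SE 0.42) and shares 40.6% of its 101-base windows with other genes, chiefly its paralog Oas1g. The cytoplasmic RNA helicases Ddx58 (RIG-I), Ifih1 (MDA5) and Dhx58 (LGP2) were at -0.07 (SE 0.16), 0.05 (SE 0.16) and 0.27 (SE 0.29). The RNA-activated kinase Eif2ak2 (PKR), which stops translation, was at 0.14 (SE 0.16).

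Parp9, an ADP-ribosyltransferase that works with the ubiquitin ligase Dtx3l, had 4.42, 3.68 and 3.81 CPM in lesioned prefrontal cortex, against 2.96, 3.08 and 3.34 CPM in control prefrontal cortex. The groups did not overlap, and the log2 fold change was 0.34 (SE 0.17, adjusted p = 0.286). Dtx3l, whose exons overlap those of Parp9 on the opposite strand, was at 0.10 (SE 0.15) and Parp14 at 0.04 (SE 0.19). The guanylate-binding proteins Gbp2, Gbp3 and Gbp7, GTPases that attack the vacuoles of intracellular pathogens, were at 0.17 (SE 0.24), 0.14 (SE 0.18) and 0.07 (SE 0.15).

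The antigen presentation genes had the smallest median of the role groups, 0.04, and 0 of 4 were called. B2m had 57.1, 60.5 and 54.0 CPM in lesioned prefrontal cortex, against 56.5, 53.4 and 61.4 CPM in control prefrontal cortex. Its log2 fold change was -0.01 with an interval of 2 SE on either side from -0.14 to 0.12. Psmb8 and Psmb9, subunits of the immunoproteasome, were at 0.24 (SE 0.27) and -0.32 (SE 0.46), and the peptide transporter Tap1 was at 0.10 (SE 0.22).

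The lists of the surrounding pathway are read in prefrontal cortex beside the 5.73% of all genes called there. In each contrast the calls of these genes were read from the reported test only, not from the alternatives. In prefrontal cortex the fit of all 12 libraries called 0.206% of all genes. Of 21 interferon ligand genes, 20 were at 0 in every library, and Ifnk had 2 counts in 1 lesioned prefrontal library only, so that at this depth no ligand transcript was measurable. Among 10 tested receptors, kinases and STAT factors, 0 were called, with a median log2 fold change of -0.07. Jak1 was at 0.14 (SE 0.05, adjusted p = 0.148), while the interferon gamma receptor chain Ifngr1 was at -0.23 (SE 0.09, adjusted p = 0.165).

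Of 19 tested sensors, adaptors and kinases that act upstream of interferon, 1 rose and 1 fell. Adar, which edits adenosine in double-stranded RNA and so hides it from the sensors, rose by 0.23 on the log2 scale (SE 0.04, adjusted p = 0.00853). Traf3, an adaptor between sensors and the kinases that switch on interferon genes, fell, at -0.50 on the log2 scale (SE 0.07, adjusted p = 0.00106). Its counts were 2336, 2031 and 1795 in lesioned prefrontal cortex, against 3123, 2822 and 2391 in control prefrontal cortex.

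Of 12 negative regulators, 1 rose, Irf2bp2, a co-repressor of Irf2, by 0.40 on the log2 scale (SE 0.07, adjusted p = 0.00683). Of 55 other tested interferon-stimulated genes, 1 rose and 0 fell, with 32 above 0 and a median of 0.03. That gene was Herc6, the main ligase for ISG15 in mice, with 468, 439 and 428 counts in lesioned prefrontal cortex, against 367, 291 and 235 counts in control prefrontal cortex. Its log2 fold change was 0.53 (SE 0.08, adjusted p = 0.00338). Of 15 partners in MHC class I presentation, 0 were called, with a median of -0.01. Nlrc5, the transactivator of MHC class I, was at 1.19 (SE 0.36, adjusted p = 0.0775), with 24, 13 and 23 counts in lesioned prefrontal cortex, against 8, 8 and 9 counts in control prefrontal cortex. All 6 listed subunits of the constitutive proteasome lay below 0, with 0 called and a median of -0.12.

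No microglia, endothelial or astrocyte marker was called higher in lesioned prefrontal cortex. The 16 microglia markers summed to 546 to 580 CPM in lesioned prefrontal cortex and 562 to 597 CPM in control prefrontal cortex, with 0 called higher and 1 lower. Of 12 endothelial markers 0 were higher and 2 lower. Of 11 astrocyte markers 0 were higher and 6 lower. Among all genes 3.45% were called higher and 2.28% lower. The 5 blood markers summed to 6.73, 2.11 and 1.03 CPM in lesioned prefrontal cortex, against 18.4, 17.1 and 3.34 CPM in control prefrontal cortex, and 2 of 3 tested were lower. Of 18 peripheral immune markers 6 were tested, with 0 called. The 14 with read counts above 0 summed to 17.5 to 20.7 CPM in lesioned prefrontal cortex and 18.5 to 24.8 CPM in control prefrontal cortex. Among the T cell genes, Cd3g was at 0 in every library and Cd3e had 0 to 2 counts in prefrontal libraries. Cd4, which is part of that sum, had 68, 14 and 32 counts in lesioned prefrontal cortex, against 25, 62 and 117 in control prefrontal cortex. In lesioned striatum Cd4 had 1542, 568 and 861 counts while Cd3e was at 0, so Cd4 did not follow Cd3e in this tissue. The granulocyte gene S100a9 had 10, 11 and 2 counts in lesioned prefrontal cortex, against 1, 0 and 1 in control prefrontal cortex. The part of these cell types in the fold changes was not tested.

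**Figure D3:**
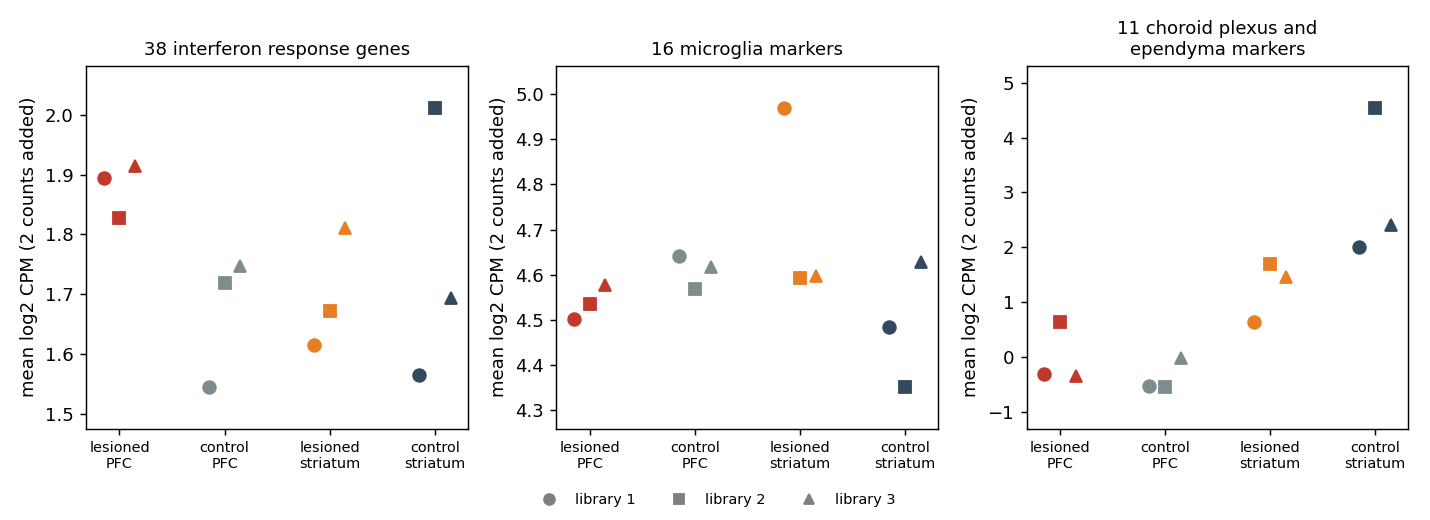
Mean log2 CPM (y axes, not from 0, with 2 counts added) over 38 interferon response genes, 16 microglia markers and 11 choroid plexus and ependyma markers in each library of the 4 groups (x axis). For the interferon genes the lesioned prefrontal libraries lie at 1.83 to 1.91, above the controls of that region at 1.55 to 1.75, and the second control striatal library, highest of all at 2.01, is also highest for choroid plexus markers at 4.55.

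In striatum no interferon response gene was called. Of the 37 tested, 0 passed edgeR's test, beside 4 of 14288 genes, or 0.028% of all genes, and 3 of the 37 had an unadjusted p under 0.05, beside 17.3% of all genes. The test on all 12 libraries called 7.15% of all genes and again 0 of these. DESeq2, which called more of all genes than the reported test, called none of these either. Limma-voom called no gene at all, so it says nothing further about the list. The log2 fold change was above 0 for 15 of 37, with a median of -0.15, beside 49.3% of all genes. In 3 of the 37, or 8.11%, all lesioned libraries lay above all controls, beside 13.1% of all genes, and in 4, or 10.8%, they lay below, beside 12.7%.

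That median rested on 1 library. The second control striatal library was the highest of its group for 25 of 38 interferon genes, against 4 and 9 for the other 2 controls. It also held the most choroid plexus and cortical excitatory neuron transcripts among the striatal libraries. Without it, 21 of 38 genes lay above 0 with a median of 0.055, and without it and the first lesioned library, 23 of 38 with a median of 0.049. Usp18, for example, had 0.614, 0.482 and 0.936 CPM in lesioned striatum, against 0.583, 2.01 and 0.812 CPM in control striatum, a log2 fold change of -0.75 (SE 0.53). Ifi27 had 12.8, 14.7 and 11.8 CPM in lesioned striatum, against 10.6, 24.4 and 12.4 CPM in control striatum. In both genes the second control library alone stood above all 3 lesioned ones. The part of choroid plexus, ependyma or cortical excitatory neurons in these levels was not tested.

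The genes described for striatum were chosen after their values were seen. Ifit3 had 5.22, 8.15 and 9.54 CPM in lesioned striatum, against 5.25, 5.75 and 5.78 CPM in control striatum. A pair of lesioned libraries lay above all controls and the first lay just below them. At 0.44 on the log2 scale (SE 0.22, adjusted p = 0.345) it was not called. Ifit3b had 3.44, 4.83 and 7.37 CPM in lesioned striatum, against 2.62, 2.65 and 3.30 CPM in control striatum. Here the groups did not overlap, but the lesioned libraries spread widely and at 0.86 on the log2 scale (SE 0.29, adjusted p = 0.222) the gene was not called either. Its interval of 2 SE on either side ran from 0.28 to 1.43 and held the prefrontal estimate.

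Xaf1 had 3.69, 3.38 and 3.33 CPM in lesioned striatum, against 1.93, 2.65 and 1.98 CPM in control striatum. The groups were apart, by 0.66 on the log2 scale (SE 0.20, adjusted p = 0.21). B2m had 41.6, 44.0 and 44.3 CPM in lesioned striatum, against 55.5, 46.3 and 49.0 CPM in control striatum, or -0.22 on the log2 scale (SE 0.08, adjusted p = 0.248). All its lesioned libraries lay below all controls. Irf1, with 2.40, 3.59 and 3.74 CPM in lesioned striatum against 4.08, 6.39 and 4.21 CPM in control striatum, was also apart and lower, at -0.60 (SE 0.26, adjusted p = 0.294).

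By role, the striatal medians were 0.28 for the 4 IFIT genes, -0.45 for ISG15 conjugation, 0.04 for signalling factors and -0.40 for the membrane factors, and 0 genes of any role were called. For other effectors the median was -0.20, for sensors -0.04, for Parp9, Parp14 and Dtx3l -0.21, for guanylate-binding proteins 0.03 and for antigen presentation -0.20. In the pathway lists 0 genes were called in striatum. Traf3 was nearest in its list, at -0.62 on the log2 scale (SE 0.07, adjusted p = 0.0648), and 14 of 15 partners in MHC class I presentation lay below 0, with a median of -0.22.

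Other cell markers moved beside these striatal values. All 12 striatal projection neuron markers lay above 0, with a median log2 fold change of 1.275 and 0 called. All 9 tested choroid plexus and ependyma markers lay below 0, with a median of -0.37 and 0 called. The 16 microglia markers summed to 589 to 739 CPM in lesioned striatum and 487 to 595 CPM in control striatum, with 14 of 16 above 0 and 0 called. Of 12 endothelial markers 11 lay below 0, and of 9 tested meningeal fibroblast markers all 9, with a median log2 fold change of -1.51 and 0 called. Their part in the interferon values was not tested.

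Within control mice, striatum was set against prefrontal cortex. Of the list, 3 of 37 were called, 1 higher and 2 lower in striatum, beside 42.3% of all 14239 genes (21.3% higher and 21.0% lower). In 4 of 37, or 10.8%, all striatal libraries lay above all prefrontal ones, beside 27.4% of all genes, and in 3, or 8.11%, below, beside 27.8%. In all, 26 of 37 had a log2 fold change above 0, with a median of 0.15, beside 51.9% of all genes. Without the second control striatal library it was above 0 for 18 of 37, with a median of -0.02.

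Ifit2, whose product binds viral RNA and curbs its translation, was lower in striatum, with 7.64, 7.54 and 10.04 CPM in control striatum, against 14.7, 13.7 and 12.7 CPM in control prefrontal cortex. Its log2 fold change was -0.70 (SE 0.14, adjusted p = 0.00453). Ifih1, a sensor of long double-stranded RNA, was also lower, with 3.27, 4.37 and 3.70 CPM in control striatum, against 5.24, 7.13 and 7.63 CPM in control prefrontal cortex (-0.81, SE 0.20, adjusted p = 0.0116). Both were called under each of 17 alternatives, and lesioned libraries of each region lay near their controls: Ifih1 had 3.69, 3.97 and 3.28 CPM in lesioned striatum and 6.36, 7.54 and 6.78 CPM in lesioned prefrontal cortex.

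Trim25 was higher in striatum, with 8.52, 9.26 and 9.99 CPM in control striatum, against 7.11, 7.13 and 7.77 CPM in control prefrontal cortex. Its log2 fold change was 0.34 (SE 0.12, adjusted p = 0.0491). The direction held in 17 of 17 alternatives and the call in 5 of them, with adjusted p from 0.0316 to 0.161. Leaving out any 1 library ended it.

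**Figure D4:**
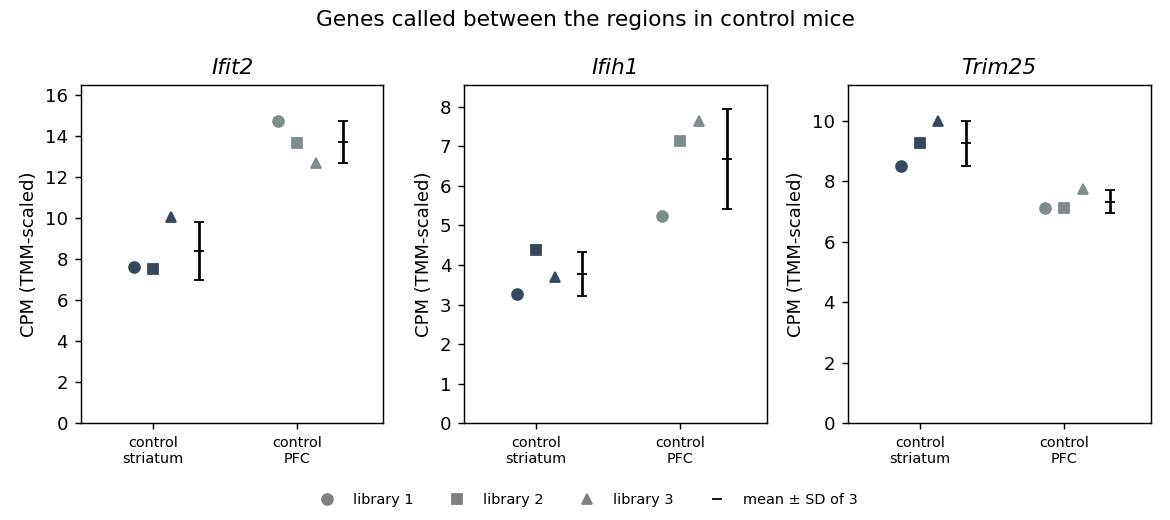
Level in CPM (y axis, from 0) of the 3 interferon response genes called between regions in control mice, in each library of control striatum and control prefrontal cortex (x axis); bars give the mean ± SD of 3. Ifit2 and Ifih1 lie lower in striatum and Trim25 higher, with no overlap between regions.

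Around the list, 9 of 58 other interferon-stimulated genes were higher and 10 lower in control striatum, beside the 42.3% of all genes called. Herc6 was among the lower ones, with 99, 82 and 102 counts in control striatum, against 367, 291 and 235 counts in control prefrontal cortex, or -1.75 as a log2 fold change (SE 0.12, adjusted p = 2.89e-05). Ifit1bl1, the neighbour between Ifit3 and Ifit3b, was at -1.20 (SE 0.18, adjusted p = 0.00111). Of 10 receptors, kinases and STAT factors, Jak1 and the receptor chain Ifngr2 were lower, at -0.33 (SE 0.06, adjusted p = 0.00328) and -0.59 (SE 0.11, adjusted p = 0.00391), and 0 were higher. Of 19 upstream sensors, adaptors and kinases, 5 were higher and 2 lower, among them the adaptor Mavs at 0.79 (SE 0.13, adjusted p = 0.00188) and the factor Irf2 at -0.45 (SE 0.10, adjusted p = 0.00928). Of 15 partners in MHC class I presentation, 6 were higher and 2 lower, among them the proteasome activator subunit Psme1 at 0.70 (SE 0.08, adjusted p = 0.00032) and H2-T23 at -0.58 (SE 0.11, adjusted p = 0.00362). Of 12 negative regulators, 2 were higher and 3 lower.

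The lesion effects of the regions were compared in the fit of 12 libraries, as the striatal minus the prefrontal log2 fold change. Of 38 genes 0 were called, beside 12 of 14545, or 0.0825% of all genes, and 0 were called under each of 24 alternatives. At an unadjusted p under 0.05 stood 1 of the 38, beside 11.7% of all genes. The difference was above 0 for 7 of 38, with a median of -0.32, beside 49.6% of all genes, and without the second control striatal library for 9 of 38, with a median of -0.19. The smallest p were those of Parp9 at -0.67 (SE 0.25, adjusted p = 0.365), Usp18 at -1.48 (SE 0.69, adjusted p = 0.437) and Irf1 at -0.61 (SE 0.29, adjusted p = 0.447). For the pair called in prefrontal cortex alone, the difference itself did not pass the test. It was -0.40 for Ifit3 (adjusted p = 0.628, interval of 2 SE from -0.98 to 0.18) and -0.12 for Ifit3b (adjusted p = 0.921, interval from -0.83 to 0.58).

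Interferon genes with and without the ISRE core were compared for their prefrontal change, as a description. Of 18 interferon genes with the core, 2 were called higher (the pair) and 14 lay above 0, with a median log2 fold change of 0.14. Of 13 with a window and no core, 0 were called and 11 lay above 0, with a median of 0.19. Among 383 other tested genes with the core, 15 were higher and 9 lower, or 6.27%, beside 5.54% of the 10688 without it.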

How the data were processed

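A table of raw read counts by gene symbol was deposited for 12 libraries. The submitters' processing notes name STAR 2.7.1a, featureCounts and the build mm10. Per the labels' protocols, 500 ng of total RNA with an integrity number of at least 8.9 was made into stranded mRNA libraries and read as 101 bp pairs. Annotation, strand setting and the rule for multiply matching reads were not given in the sources used, which leaves counts of paralogs and overlapping genes uncertain. Of all symbols, 3732 had no count at all. A further 1830, with 0.144% of all counts, held only multiples of 11 and were left out of the tests. None of the 40 genes was among them.

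The tests used edgeR 4.0.16 (quasi-likelihood, R 4.3.3) after filterByExpr and TMM scaling, on the 6 libraries compared, or on all 12 for the difference between regions. P-values were two-sided and adjusted by Benjamini and Hochberg over all genes tested, with calls at an adjusted p below 0.05. The lesion and regional contrasts share control libraries. An SE is the size of the log2 fold change divided by the square root of F. RPKM used exon lengths of GENCODE M21 on GRCm38. Alternatives were other scalings and filters, DESeq2 1.42.0, limma-voom (limma 3.58.1), all 12 libraries, a replicate block, a GC and length correction and libraries left out. The test was checked on simulated counts. On the 6 libraries compared it recovered 79.6% of 1.5-fold changes in prefrontal cortex and 17% in striatum. For 2-fold changes the shares were 93.9% and 66%. The changed genes were drawn from all genes above a minimum mean count, not from the interferon genes. Whether these shares hold in either region for genes as low as most of the interferon genes was not tested. Of the calls, 7.57% were false in prefrontal cortex and 4.71% in striatum. With all 12 libraries, 38.2% of the striatal calls were false and 0% of the prefrontal calls. That fit recovered 59% of 1.5-fold and 84% of 2-fold changes in prefrontal cortex, and 47% and 81% in striatum. On the 6 libraries compared, a striatal change of 1.5-fold would thus mostly be missed. The 40 genes, the other lists and the fit on 6 libraries were chosen with earlier results of these data known. In those results 1 common spread for both regions gave too few calls in prefrontal cortex and too many false calls in striatum. The genes given in full were those called and, in prefrontal cortex, those with the smallest p up to 12. The prefrontal values of Ifit1, Ifit2, Isg15 and B2m were added beyond this rule after they were seen, as were the genes given for striatum. Between regions they were the called genes, up to 6 in each direction, and for the difference, with none called, the 3 with the smallest p. From the pathway lists, the tested genes named were some of those called or, with none called, some of the 3 with the smallest p. They are examples, and not every such gene was named. The result of 1 gene so chosen is not reported here, although counts of its list include it.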

Additional observations from a re-analysis of the deposited data

How the results depend on the processing

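The count of interferon response genes called was 2 in prefrontal cortex under the other scalings, tests, filters, the replicate block and both treatments of the multiples of 11, and 3, with Ifi27, after the GC and length correction. It was 0 with all 12 libraries in 1 fit, which called 30 of all genes in place of 803. Leaving out 1 library gave 2 to 3 called interferon genes in prefrontal cortex and 195 to 1010 of all genes, the lowest without the second lesioned library. In striatum no interferon gene was called under any setting, while the count over all genes, 4 in the reported test, was 529 with DESeq2, 1040 with all 12 libraries, 13 after the GC and length correction and 55 without the first lesioned and second control libraries. It was 0 with limma-voom, 0 under the replicate block and 0 with the multiples of 11 kept, and leaving out 1 library gave 0 to 2. For the difference between regions, where 12 of all genes were called, DESeq2 gave 116, limma-voom 2, limma-voom with a weight per region 0, the replicate block 6, the multiples of 11 kept 5 and both striatal libraries left out 101, and leaving out 1 library gave 0 to 172. Between regions in controls, leaving out 1 library gave 4665 to 6805 of all genes and 2 to 3 interferon genes. The cause of these shifts was not tested.

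Of the named genes' fold changes under alternatives, 382 kept their direction and side of the threshold, 2 crossed it upward, 14 lost a call and 0 turned direction. The labels do not say that replicate numbers pair the libraries. Same-numbered lesioned and control libraries had correlations of deviations of -0.06, -0.09 and -0.02 in prefrontal cortex and -0.12, 0.004 and 0.03 in striatum. Across regions, striatal and prefrontal libraries of the same number had 0.09, 0.04 and 0 in lesioned mice and 0.08, -0.004 and 0.09 in controls. In 4 of these 6 pairs the value was above those of other numbers, a hint from the data only, and none exceeded 0.1. With the number as a block, 634 of all genes were called in prefrontal cortex, with Ifit3 and Ifit3b still among them, and 5590 between regions, where Trim25 lost its call (adjusted p = 0.0622). Between regions in controls, leaving out both striatal libraries equals leaving out the control one and was not run again. Usp18 was not tested in prefrontal cortex with a minimum of 1 CPM.

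Among genes near 1 CPM, Usp18, Isg15, Rsad2 and Oas1a had SEs of 0.31 to 0.42 in prefrontal cortex, and their estimates did not pass the test. Whether depth set this was not tested.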
